A study of Arabidopsis thaliana with 24 samples.

Results

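In aerial parts of Arabidopsis thaliana seedlings, 96 genes set the accessions Altenb-2 and Kly-1 apart from Shigu-2 and Vash-1 by their transcription start site tags. The genes were chosen by these same tag levels: the lower level of one pair had to be at least 2 times the higher level of the other. Of 13892 genes with 5 CPM or more in any accession (CPM are tag counts scaled to a common depth), 55 (0.396%) were higher in Altenb-2 and Kly-1 and 41 (0.295%) were higher in Shigu-2 and Vash-1. These counts come from the values that chose the genes, so they describe the choice and are not a test.

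Start sites were mapped by CAGE, which traps capped RNA ends and sequences a tag from each. All groups were wild-type plants of 2 weeks: each accession had a control group at 22 °C and 40 µE of continuous light, and a group then held for 24 h at 4 °C and 140 µE, with 3 libraries per group (24 in all). The deposited tag counts stand in 4 sets of start site clusters, which were taken for the 4 accessions from the initials of their identifiers alone. How control and stressed libraries were pooled into a set is not stated in the labels or the table, so accession and treatment cannot be told apart in any difference below. Each accession has 1 pooled value per gene, with no replicate check, no standard deviation and no p-value, and the response to cold and light was not computed.

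Levels are sums of genic tags, those on the gene's strand from 500 bp upstream of the annotated gene start to the start codon. They are given in CPM of the tags outside the nuclear rRNA repeats, of which Altenb-2 had 22462179, Kly-1 had 29311532, Shigu-2 had 37230794 and Vash-1 had 24535666, and 4 values in a row always follow this order. A cluster with fewer than 5 tags is not listed, so "unlisted" means no genic cluster of 5 tags or more, and not absence. A gene is also unlisted where a larger cluster spans its start codon but peaks past it. Intervals are exact binomial 95% intervals and cover counting error only. In pooled tissue, fewer cells of a type and less RNA per cell cannot be told apart. The 11 leaf markers summed to 56085 to 79205 CPM across the accessions, while 12 root, 6 flower and 9 seed markers stayed at sums of at most 7.66 CPM, and no marker was among the 96 genes. AP1, AP3, PI and LFY, which define flowers, were unlisted in all accessions.

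As background, leaves build the carbon-fixing enzyme Rubisco with small subunits from a family of near-identical nuclear genes, so that a family member can differ while the total stays level. Plant immune receptors of the NLR class (nucleotide-binding, leucine-rich repeat) lie in clusters of related genes that vary widely between accessions. Jasmonate, a wound and defence hormone, is inactivated by oxygenases that its own signal induces.

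The sequences around the main start sites of the genes that the results turn on are shown here from the TAIR10.1 reference, 50 bases upstream to 10 bases downstream, 5′ to 3′ on the gene's strand. Capitals mark the main peak base and any TATA motif (TATAAA or TATATA) starting 40 to 25 bases upstream of it. They are the 2 most abundant genes and AT5G54760, the most abundant of the genes higher in Shigu-2 and Vash-1. Also shown are a Rubisco neighbour that did not differ by the rule and some jasmonate, heat and methionine repair genes. The jasmonate genes JRG21 and AT2G38240, not printed, hold no such motif. The printed lines are not typical of the 96 genes, of which 36.5% had the motif.
AT5G42530 (chr5:17005353-17005413, minus strand): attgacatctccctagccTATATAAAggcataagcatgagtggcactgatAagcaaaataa
RBCS1B (chr5:15385171-15385231, minus strand): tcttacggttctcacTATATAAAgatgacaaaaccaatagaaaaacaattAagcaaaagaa
RBCS2B (chr5:15382015-15382075, minus strand): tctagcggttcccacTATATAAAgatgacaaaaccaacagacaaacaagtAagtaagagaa
ORA47 (chr1:28144082-28144142, plus strand): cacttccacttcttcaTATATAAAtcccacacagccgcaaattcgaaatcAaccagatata
AT5G05600 (chr5:1672192-1672252, plus strand): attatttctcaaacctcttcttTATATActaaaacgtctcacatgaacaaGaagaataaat
AT5G51440 (chr5:20891114-20891174, plus strand): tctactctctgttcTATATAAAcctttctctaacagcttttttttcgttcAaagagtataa
AT5G54760 (chr5:22243828-22243888, plus strand): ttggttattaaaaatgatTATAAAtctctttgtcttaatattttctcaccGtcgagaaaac
MSRB5 (chr4:2445809-2445869, plus strand): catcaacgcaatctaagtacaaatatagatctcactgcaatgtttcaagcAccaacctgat

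AT5G42530, which the annotation lists only as an uncharacterized protein, had the widest gap of all. It spans positions 17004738 to 17005510 of chromosome 5 and is read from the minus strand. Its levels were 3656, 2836, 15.9 and 29.4 CPM. The lower of its higher pair, Kly-1, thus stood 96.4 times above Vash-1 (interval 89.6 to 104). The main peak was the same base in all 4 accessions, and the TATA motif printed above lies upstream of it.

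RBCS1B, a Rubisco small subunit gene at chromosome 5, positions 15383167 to 15385320, had 761, 1587, 9.86 and 14.02 CPM. The ratio of Altenb-2 to Vash-1 was 54.3 (interval 48.8 to 60.6). Its relatives did not follow it. RBCS2B, next to it on the chromosome, had 5182, 4339, 9391 and 7694 CPM, so Altenb-2 and Kly-1 were the lower pair there without reaching 2-fold. RBCS3B had 9303, 9523, 5354 and 12960 CPM, and RBCS1A, on chromosome 1, had 16940, 17821, 17152 and 19999 CPM. RBCS1B was therefore 2.36% and 4.77% of the tags of the 4 genes in Altenb-2 and Kly-1, and 0.0309% and 0.0345% in Shigu-2 and Vash-1. The sum of the 4 genes was 32187, 33271, 31908 and 40668 CPM, with no split by pair. RBCS1B and RBCS2B share 53 of the 61 bases printed above, most of which lie upstream of the start site, and 57 of the 60 bases from the start codon. In the reference, the first 50 bases from the main peak of RBCS1B had no copy within 2 mismatches. Tags that match several family members could be shared out between them, which was not tested.

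**Figure D1:**
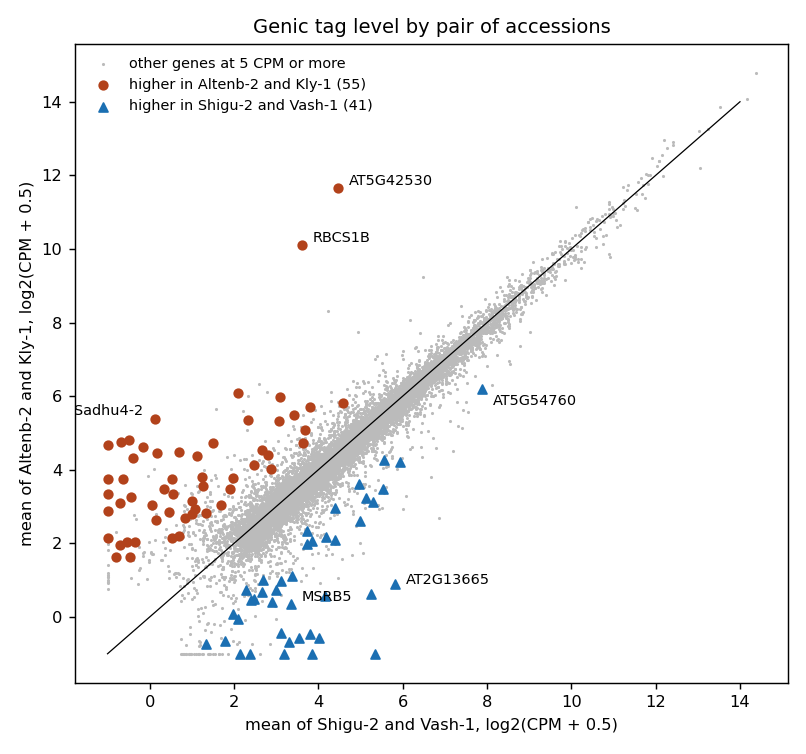
Genic level of 13892 genes, mean of Shigu-2 and Vash-1 on the x axis against mean of Altenb-2 and Kly-1 on the y axis, both in log2(CPM + 0.5), with 1 pooled value per accession and the line of equality. AT5G42530 and RBCS1B stand far above the other 53 circles, and AT5G54760 is the most abundant triangle.

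Among the 55 genes higher in Altenb-2 and Kly-1, the ratio behind the rule had a median of 3.06 over the 50 genes for which it can be given. It reached 4 in 19 genes and 10 in 11 genes. Both lower accessions were unlisted in 5 genes. Of these, AT2G23820 and AT3G47850 still had 24.0 to 32.6 CPM of sense tags there, in clusters peaking past the start codon. In 19 of the 50 the counting interval of the ratio reached below 2. AT1G76960 has no ratio and is not among them, but rests on 5 tags in Kly-1. Levels were low: 30 of the 55 stayed under 20 CPM in their highest accession. Among the 41 genes higher in Shigu-2 and Vash-1 the median ratio was 2.90 over 36 genes. The ratio reached 4 in 10 genes and 10 in 6 genes, and its interval reached below 2 in 13. Both lower accessions were unlisted in 5 genes. Of these, AT5G46390, TLP7 and GSH2 still had 30.4 to 39.9 CPM of sense tags there, again in clusters peaking past the start codon. Of the genes described here, the interval reached below 2 for RHB1A, JRG21, LYK3, AGC2-1, EXLA1, CYP71B18, AT3G50270, PUB18, SRO2, AT3G62470 and AT4G14000 in the first direction. In the second it did so for HAE, KNAT1, FER2, AT1G63390, AT1G62290, AT1G05835, AT5G66052 and AT5G16350. In 70 of the 96 genes the lower pair was under 5 CPM, so these passed the minimum level only through the pair in which they are high. The median difference over all 13892 genes was -0.07 (log2), Altenb-2 and Kly-1 minus the other pair.

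The pairs did not always hold together. By genic tags, the accessions of the higher pair were within 2-fold of each other in 37 of 55 and 29 of 41 genes. They were more than 5-fold apart in 6 and 6. The second 6 include TLP7 and GSH2, 21.4- and 21.2-fold apart by genic tags. Their sense tags in Shigu-2 and Vash-1 were 38.0 and 28.1 CPM for TLP7, and 33.7 and 39.7 CPM for GSH2. RHB1A, a RING-type ubiquitin ligase gene, had 0.534, 8.80, 0.242 and 0.204 CPM, so it was high in Kly-1 and low in the other 3. AT1G76960 reached 28.3 CPM in Altenb-2 but 0.171 CPM in Kly-1, and the other pair did not list it. AT3G29639 and AT3G12981 were likewise mainly Vash-1 genes, at 60.9 and 21.6 CPM against 1.72 and 0.376 CPM in Shigu-2. The other ways to pair the accessions gave more genes under the same rule: 130 and 162 for Altenb-2 and Vash-1 against Kly-1 and Shigu-2, and 67 and 66 for Altenb-2 and Shigu-2 against Kly-1 and Vash-1. With the rRNA tags kept in the totals, 33 genes rather than 55 were higher in Altenb-2 and Kly-1. Keeping only clusters that peak on a pyrimidine-purine step gave 109 and 110 genes.

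**Figure D2:**
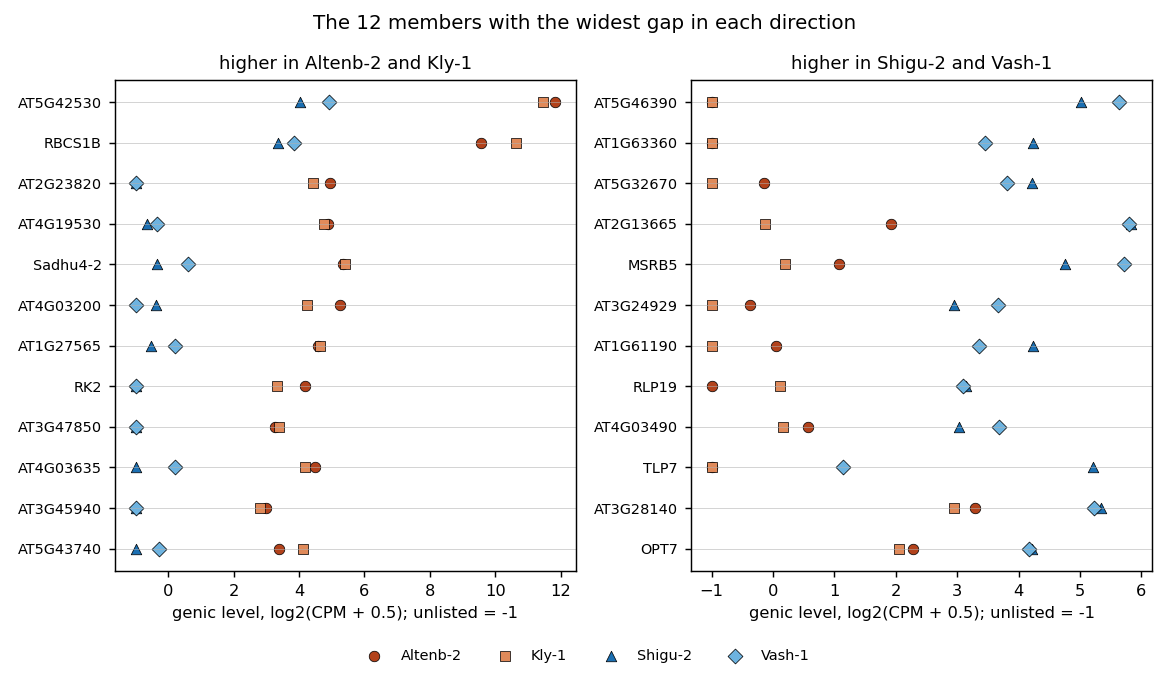
Genic level, log2(CPM + 0.5), on the x axis of the 12 genes with the widest gap in each direction, with a marker for each accession's pooled value, and unlisted genes at -1. The pairs are separate in every row by genic tags. Over all sense tags the 2-fold gap was absent for AT2G23820, AT4G03200, AT3G47850, AT5G46390 and TLP7, as described below. TLP7 shows Vash-1 far below Shigu-2 by genic tags, though its sense tags were 28.1 CPM in Vash-1 and 38.0 CPM in Shigu-2.

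NLR immune receptors were 6 of the 96 genes, out of 59 of their class at 5 CPM or more (10.2%, against 0.691% of all tested genes). They went both ways, 4 and 2, and the class had a median difference of -0.08, close to that of all genes. AT4G19530, at chromosome 4, positions 10651744 to 10657282, had 28.8, 26.6, 0.134 and 0.285 CPM. Its neighbour AT4G19520, like it of the TIR-NBS-LRR type, had 7.17, 63.4, 0.376 and 0.937 CPM. Both were near the listing limit in Shigu-2 and Vash-1. AT4G19500, of the same cluster, had 21.2 CPM in Kly-1 and at most 0.326 CPM elsewhere and did not meet the rule. INDH (AT4G19540), the gene on the far side, had 13.8, 7.98, 7.57 and 2.201 CPM, which does not split by pair at 2-fold.

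AT5G43740, an NLR of the CC-NBS-LRR type, had 10.06, 16.9, 0 and 0.326 CPM. AT1G61190 went the other way with 0.534, 0, 18.4 and 9.78 CPM. Its main peak lies 1878 bp past the annotated gene start, further than that of any other of the 96 genes.

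AT1G62630 and AT1G63360, again CC-NBS-LRR genes, differed in opposite directions and have almost the same start sequence. AT1G62630 had 6.19, 9.79, 1.67 and 0 CPM, and AT1G63360 had 0, 0, 18.4 and 10.5 CPM. In the reference their start regions differ at 1 of 61 bases, as the lines below show, and neither holds the TATA motif.
AT1G62630 (chr1:23185819-23185879, plus strand): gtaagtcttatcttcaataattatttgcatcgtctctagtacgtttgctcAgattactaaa
AT1G63360 (chr1:23502202-23502262, minus strand): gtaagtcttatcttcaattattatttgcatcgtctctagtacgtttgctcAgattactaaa
Together the copies had 6.19, 9.79, 20.1 and 10.5 CPM, a sum in which the pairs differ by less than 2-fold. Tags were placed on a reference that may not match these accessions, and whether the copies exchanged tags was not tested.

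TIR (AT1G72930), a short gene with the Toll/interleukin-1 receptor domain of NLRs but without the rest, had 75.4, 59.8, 8.73 and 1.47 CPM. AT1G72910, a relative in the same gene cluster, had 35.3, 91.5, 193 and 127 CPM. The first 50 bases of the TIR tag region occur in identical form in AT1G72910, and the aligned 61 bases differ at 2 positions. The line of AT1G72910 is aligned to that of TIR, so the capital A of its own main peak, position 27435614 of chromosome 1, stands further along than in the other lines. The capital A of TIR is its main peak in Altenb-2, at 27439452. In Kly-1 the main peak of TIR was at 27439456. In Shigu-2 and Vash-1 it was at 27439322 and 27439340, upstream of the printed stretch.
TIR (chr1:27439402-27439462, plus strand): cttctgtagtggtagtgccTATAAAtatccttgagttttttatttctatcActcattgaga
AT1G72910 (chr1:27435560-27435620, plus strand): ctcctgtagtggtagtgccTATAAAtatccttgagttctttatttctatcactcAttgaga
The sum of both genes was 111, 151, 202 and 129 CPM, which does not separate the pairs. For the other TIR relatives nearby, AT1G72900, AT1G72920 and AT1G72940, Kly-1 had the highest level, at 52.7, 23.9 and 9.62 CPM.

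Near-identical start sequences elsewhere in the reference were counted for the 96 genes. In 9 (9.38%) the first 50 bases from the main peak occurred elsewhere in the reference with at most 2 mismatches, against 0.799% of all tested genes. Beside the genes above they were AT1G27565, AT3G62470, SAUR20, AT1G63390, AT3G29639 and AT5G32621. SAUR20, of an auxin-induced gene family, had 16.5, 31.0, 6.69 and 5.01 CPM, and its copies AT5G18010 and AT5G18080 had 8.77, 14.7, 9.86, 6.85 and 9.66, 19.6, 9.96, 6.97 CPM. The copies thus lacked the 2-fold split that SAUR20 had. AT1G27565 had 23.7, 24.6, 0.188 and 0.652 CPM, and its copy AT1G52905 stayed at or below 0.530 CPM in all accessions.

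Of receptor-like proteins and kinases, 2 and 2 of 152 tested genes were members (2.63%, against 0.691% of all tested genes). RK2, a receptor kinase, had 17.8 and 9.48 CPM in its higher pair and no listed tag in Shigu-2 or Vash-1. RLP19, a receptor-like protein, had 0, 0.580, 8.33 and 8.03 CPM, and its intragenic tags, those past the start codon, were ordered by pair as well with 0.623, 1.501, 2.18 and 4.24 CPM. SERK4, a co-receptor kinase, and HAE, a receptor of organ shedding, belong to the genes whose difference ended when tags past the start codon were added. LYK3, a LysM receptor kinase outside that list, sat on the threshold with 55.65, 54.995, 20.25 and 27.5 CPM and a ratio of 2.00.

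Members of the jasmonate inactivation family were higher in Altenb-2 and Kly-1. AT5G05600, JRG21 (AT3G55970) and AT2G38240 belong to a family of 4 oxygenases that hydroxylate jasmonate. They were grouped after their values were seen. AT5G05600 had 30.2, 64.7, 13.2 and 7.99 CPM. JRG21 had 43.4, 61.2, 21.6 and 8.19 CPM, just inside the threshold at a ratio of 2.01. AT2G38240 had 5.30, 8.39, 0.886 and 0.856 CPM, with a ratio of 5.98 (interval 4.04 to 9.08). The remaining one, AT3G11180, had at most 0.356 CPM.

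ORA47, an activator of jasmonate synthesis genes, had 31.8, 48.96, 4.65 and 13.3 CPM (ratio 2.39, interval 2.096 to 2.736). The jasmonate response list held 0 members among 30 tested genes, too few to tell apart from the 0.691% of all tested genes. Its median difference was 0.16, and 19 of the 30 had the higher mean in Altenb-2 and Kly-1. JAZ1, a repressor of the pathway, had 47.4, 64.0, 32.2 and 37.3 CPM, which is the same direction at less than 2-fold. VSP2, a late marker, had 8.37, 141, 69.8 and 413 CPM and did not split by pair.

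HSP17.4 and AT5G51440, both small heat shock proteins, were higher in Altenb-2 and Kly-1. How many small heat shock proteins were tested was not counted. HSP17.4, a cytosolic chaperone, had 2.40, 5.25, 0.457 and 0 CPM, and AT5G51440, of the HSP20 chaperone family, had 18.6, 22.6, 6.18 and 6.93 CPM. HSP17.6A lay just outside the threshold with 8.68, 27.6, 4.38 and 0.734 CPM and a ratio of 1.98. The short list of heat shock genes also holds the transcription factors HSF1, HSF4, HSFB2A and DREB2A. On it, HSP17.4 was the 1 member among 13 tested genes (7.69%, against 0.691% of all tested genes). The list's median difference was 0.47 and 10 genes had the higher mean in Altenb-2 and Kly-1. HSC70-1, a constitutive chaperone, was among the other 3, with 878, 827, 1020 and 1413 CPM. The wider list of heat shock and DnaJ proteins, which holds both genes, had 2 members among 101 tested genes (1.98%), but its median difference was -0.07, that of all genes, and 37 of the 101 had the higher mean in Altenb-2 and Kly-1.

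**Figure D3:**
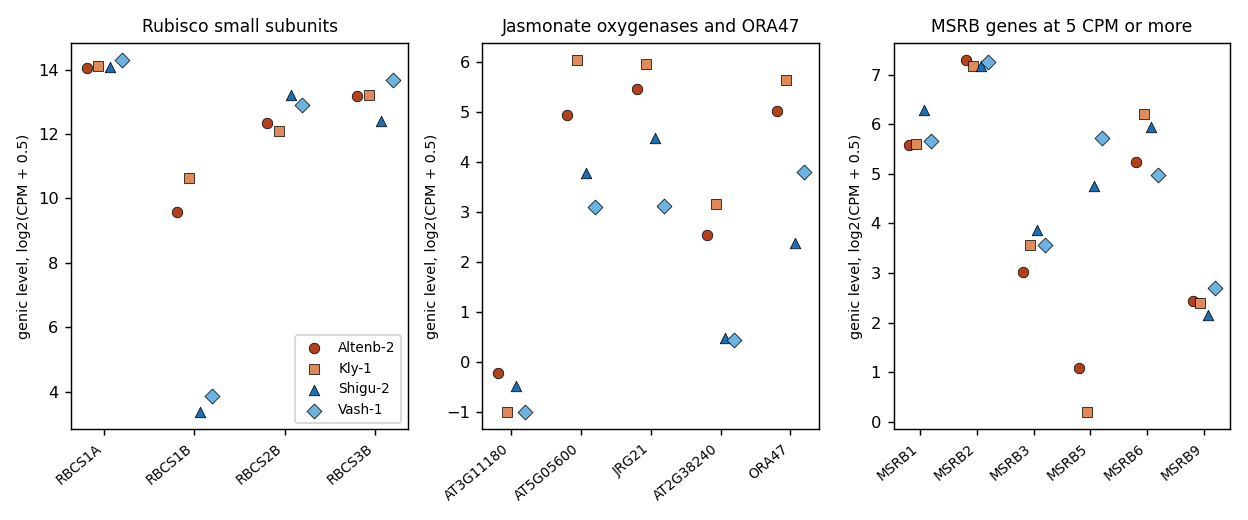
Genic level, log2(CPM + 0.5), on the y axis for each gene of 3 families, with a marker for each accession's pooled value. RBCS1B, MSRB5, AT5G05600, JRG21, AT2G38240 and ORA47 split by pair, while AT3G11180 stays at or below 0.356 CPM and RBCS1A and MSRB2 are level.

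Other genes higher in Altenb-2 and Kly-1 had varied roles. Sadhu4-2, a retroposon-derived pseudogene at chromosome 1, positions 846664 to 847739, had 40.1, 42.2, 0.295 and 1.02 CPM, a ratio of 39.4 (interval 26.5 to 61.2). Its antisense tags went the same way, with 1.91, 2.01, 0 and 0.285 CPM. AT4G03635, annotated as an F-box/LRR protein, had 21.8, 17.5, 0 and 0.652 CPM and was the only member among 103 tested F-box genes (0.971%, near the 0.691% of all tested genes). AT3G45940, a glycosyl hydrolase of family 31, had 7.39 and 6.48 CPM and was unlisted in Shigu-2 and Vash-1. Its intragenic tags differed in the same way, with 10.7, 8.02, 0.134 and 0.611 CPM.

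AT5G42825, an uncharacterized protein, had 52.8, 74.6, 16.3 and 3.79 CPM. AT4G04692, a transcribed pseudogene, had 63.9, 25.8, 3.09 and 6.52 CPM. PFK2, a phosphofructokinase of glycolysis, had 15.8, 11.1, 3.28 and 3.59 CPM, and PCNA2, the sliding clamp of DNA replication, had 4.81, 7.20, 1.58 and 1.02 CPM. AGC2-1, a protein kinase of oxidative stress signalling, had 2.54, 5.87, 1.07 and 0.815 CPM. EXLA1, an expansin-like gene, had 7.43, 14.9, 2.79 and 3.71 CPM, with a ratio of 2.00. The genes nearest outside the threshold were ERF71, HSP17.6A and AT1G70430.

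AT2G43535, a small knottin-type protein of the kind found among plant defence peptides, had 11.6, 15.8, 1.13 and 2.93 CPM. CYP71B18, annotated as a transcribed pseudogene of the cytochrome P450 family, had 27.2, 14.9, 0.161 and 6.68 CPM, so the lower pair was itself uneven. AT3G50270, an acyltransferase, had 22.04, 12.9, 5.67 and 4.48 CPM, and AT1G28190 had 36.5, 30.8, 12.9 and 11.9 CPM. PUB18, a U-box ubiquitin ligase, had 7.48, 6.93, 3.01 and 0.774 CPM, and SRO2, a relative of the stress regulator RCD1, had 5.92, 2.76, 1.21 and 1.02 CPM. The other 15 genes of this direction peaked at 6.07 to 26.6 CPM in their highest accession, with ratios of 2.02 to 28.9.

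AT5G54760 was the most abundant of the genes higher in Shigu-2 and Vash-1. It encodes a protein of the SUI1 family, which helps ribosomes select the start codon, at chromosome 5, positions 22243800 to 22245810. Its levels were 66.9, 80.5, 277 and 198 CPM, a ratio of 2.46 (interval 2.34 to 2.58). The family members AT4G27130, AT1G54290 and AT5G54940 did not split, with 165 to 213, 60.8 to 95.3 and 159.3 to 258.9 CPM.

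MSRB5, which repairs oxidized methionine, had 1.60, 0.648, 26.6 and 52.2 CPM, a ratio of 16.6 (interval 11.9 to 23.8). It lies at chromosome 4, positions 2445775 to 2447086, in a cluster of related genes. MSRB6, in the same cluster, had 37.2, 73.2, 61.4 and 31.0 CPM, and MSRB3 had 7.66, 11.26, 14.05 and 11.37 CPM. The relatives outside it, MSRB1 and MSRB2, had 47.8 to 78.2 and 145 to 156 CPM. No other MSRB gene at 5 CPM or more met the rule.

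AT2G13665, a long non-coding RNA at chromosome 2, had 3.29, 0.409, 56.8 and 54.9 CPM, and AT4G14548, also non-coding, had 4.81, 6.41, 57.6 and 17.1 CPM. AT5G32670, annotated with a START lipid-binding domain, had 0.401, 0, 18.1 and 13.5 CPM. AT3G24929 had 0.267, 0, 7.20 and 12.2 CPM, and AT4G03490, an ankyrin repeat gene, had 0.979, 0.614, 7.65 and 12.3 CPM. Apart from AT4G14548, these were among the 12 widest gaps of their direction.

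Enzymes and transporters were also among the genes higher in Shigu-2 and Vash-1. OPT7, an oligopeptide transporter, had 4.36, 3.65, 18.05 and 17.403 CPM. PYD4, an aminotransferase named for pyrimidine breakdown, had 10.5, 10.7, 36.3 and 57.2 CPM. AT3G28140, of an RNA ligase family, had 9.26, 7.23, 40.2 and 36.9 CPM. MBP1, which binds the myrosinase of glucosinolate defence, had 9.08, 8.56, 28.7 and 41.3 CPM and was the only member among 23 tested genes of glucosinolate metabolism (4.35%, against 0.691% of all tested genes, from a single gene). AIR3, a subtilisin-like protease, had 18.1, 19.2, 43.1 and 49.8 CPM. FER2, an iron storage ferritin, had 0.623, 1.16, 9.21 and 2.40 CPM. The more abundant ferritins FER1, FER3 and FER4 were highest in Shigu-2, at 793, 138 and 54.8 CPM. Nearest inside the threshold were AT1G05835, AT5G66052 and FER2, and just outside it were COBL5, AT3G53980 and AT2G46535.

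CAX9, a cation exchanger, had 1.51, 1.54, 7.92 and 4.44 CPM. AT1G63390, annotated as a flavin monooxygenase of the glucosinolate-modifying type, had 5.92, 9.01, 21.3 and 20.1 CPM. AT1G62290, an aspartyl protease, had 2.85, 4.78, 18.9 and 10.2 CPM, and AT1G05835, a PHD finger gene, had 12.3, 11.1, 24.8 and 37.5 CPM with a ratio of 2.02. AT5G16350, an acyltransferase of the wax ester type, had 0.445, 0.478, 1.05 and 11.5 CPM and was mainly a Vash-1 gene. The other 7 genes of this direction peaked at 5.14 to 24.6 CPM in their highest accession, with ratios of 2.101 to 3.77.

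Lists of cold, light and pigment genes held no member, but with 0.691% of all tested genes being members, lists of this size would mostly hold none. These were cold effectors (25 tested genes), cold and light regulators (24), flavonoids and anthocyanins (18), photoprotection (20) and light harvesting (44). Their median differences were -0.17, -0.09, -0.62, -0.05 and 0.23. The clock (22 genes), abscisic acid (21), salicylic acid (24) and sugar and starch lists (30) held 0 members as well.

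For 10 of the 96 genes the difference turned on how clusters around the start codon were counted. When all sense tags of the gene were counted, 85 genes kept a 2-fold split (51 and 34) and 11 did not. KNAT1, a homeobox gene, missed it narrowly, at a ratio of 1.93. The other 10 had tags on both sides of the annotated start codon, or of the limit used where none is annotated, and each cluster counted as genic or intragenic as a whole by its peak. Between accessions, either the main peak moved across that point or the clusters were split differently around it.

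AT5G46390, a peptidase of the S41 family, had 0, 0, 32.0 and 49.5 CPM of genic tags but 36.7, 30.4, 32.6 and 49.5 CPM of all sense tags. Its main peak lay 15 bp upstream of the start codon's first base in Vash-1 and 11 bp upstream in Shigu-2. In Altenb-2 and Kly-1 it lay 2 bp past that base. The stretch is shown with the start codon and these peaks in capitals, the last of them being the G of the codon.
AT5G46390 (chr5:18816585-18816622, plus strand): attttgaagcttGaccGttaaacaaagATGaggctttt

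AT2G21860, a relative of violaxanthin de-epoxidase, showed the same kind of shift. Its peak was 12 bp upstream in Shigu-2 and Vash-1 and 5 bp past the first base of the start codon in the other pair, and all sense tags were 16.3, 26.7, 25.8 and 11.5 CPM. Capitals again mark the start codon and both peaks.
AT2G21860 (chr2:9319977-9320014, minus strand): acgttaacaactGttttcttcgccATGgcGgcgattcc

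AT2G23820, a metal-dependent phosphohydrolase, had peaks 23 and 70 bp upstream in Altenb-2 and Kly-1 and 9 bp past the first base in Shigu-2 and Vash-1. Its genic tags were 30.1, 21.0, 0 and 0 CPM, and its sense tags were 30.1, 22.2, 24.0 and 28.2 CPM. AT4G03200 and AT3G47850 differed in how clusters were split. In AT4G03200, Altenb-2 and Kly-1 each had a cluster peaking 98 bp upstream and a larger cluster peaking 19 bp past the first base. Shigu-2 and Vash-1 had 1 main cluster, 334 and 298 bp wide, that spanned both and peaked at the same 19 bp. In AT3G47850 the split clusters peaked 13 bp upstream and 58 bp past, and the joined ones, 95 and 114 bp wide, at 58 bp.

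SERK4 peaked 59 bp upstream in Altenb-2 and Kly-1 and 5 bp past the first base in the other pair, with sense tags of 22.48, 45.03, 26.78 and 36.9 CPM. For TLP7, a tubby-like protein, and GSH2, glutathione synthetase, the main peak lay upstream in Shigu-2 alone, at 59 and 23 bp. Their sense tags were 28.1 to 38.0 and 33.7 to 39.9 CPM. HAE had its main peak 72 bp past the first base in all accessions, with a separate upstream cluster in Shigu-2 (11.7 CPM) and Vash-1 (3.42 CPM). AT2G20724, a transcribed pseudogene with no annotated start codon, peaked on either side of the 200 bp limit used in its place.

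**Figure D4:**
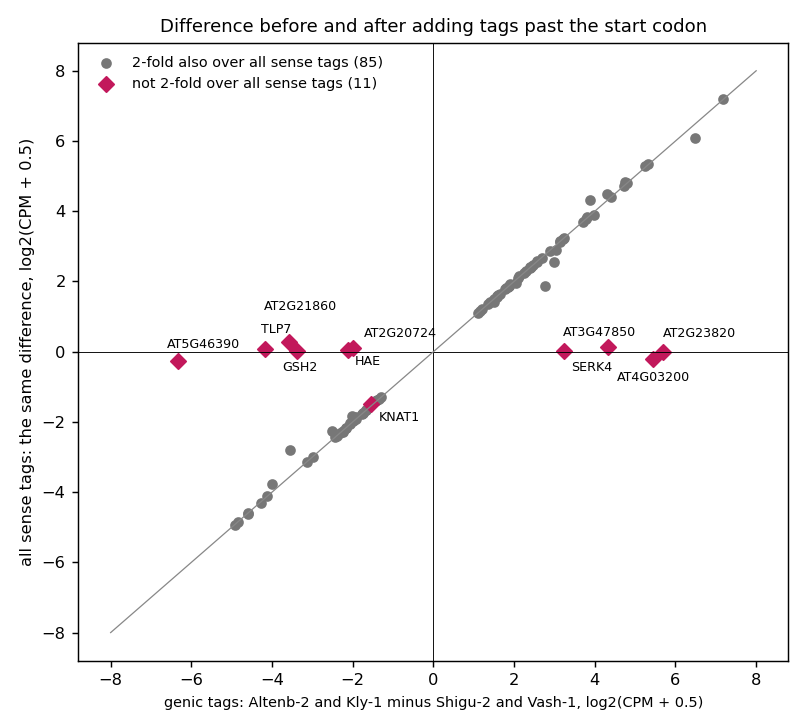
Difference between the pairs in log2(CPM + 0.5), Altenb-2 and Kly-1 minus Shigu-2 and Vash-1, for genic tags on the x axis and for all sense tags of the same gene on the y axis, for the 96 genes. The 85 grey points lie near the diagonal, and 10 of the 11 diamonds lie near 0 on the y axis, KNAT1 being on the diagonal.

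**Figure D5:**
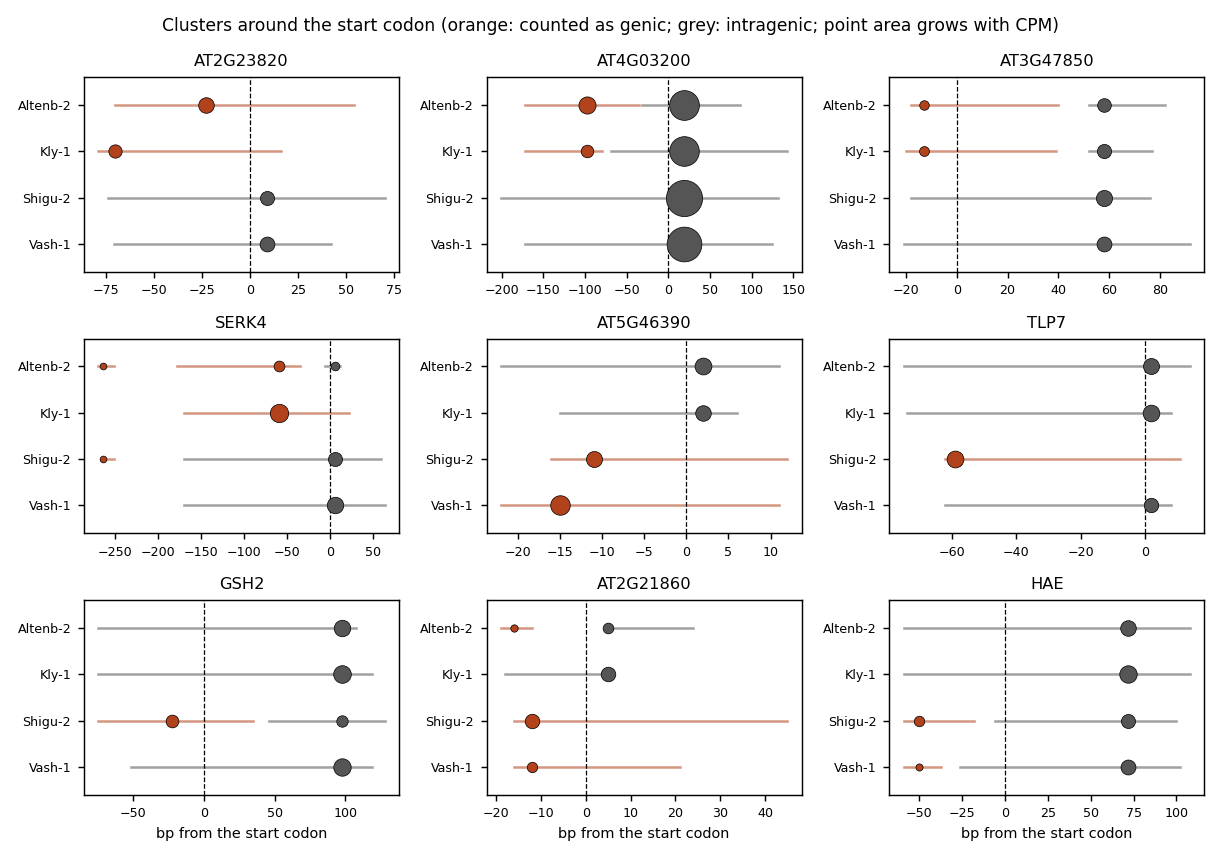
Clusters with at least 10% of a gene's sense tags, by distance in bp from the start codon's first base (dashed line) and by accession, for 9 genes. Lines span the cluster, points mark its peak with area growing with CPM, orange clusters counted as genic and grey ones as intragenic. The spans overlap between accessions while the peaks of AT5G46390 lie at -15, -11 and 2 bp.

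Intragenic tags were not used by the rule, except that at the genes just described a tag counts as genic or intragenic by its cluster's peak. Intragenic tags reached 1 CPM at 24 of the 96 genes (25%, against 26.3% of all tested genes). Of these, 4 of 13 and 1 of 11 differed 2-fold in the same direction as the genic tags. With the genes chosen anew, these 5 became 3 with the rRNA tags kept and 2 with pyrimidine-purine peaks only. A difference of the same sign as the genic tags was found in 6 of 13 and 5 of 11. The median differences were -0.35 and -0.40 (log2, higher minus lower pair by genic tags), with the genes just described included. Of all 3649 genes with such tags, 1.86% were 2-fold higher in Altenb-2 and Kly-1 and 3.34% in Shigu-2 and Vash-1. The 4 included AT5G42530 (4.67, 2.52, 0 and 0 CPM), AT3G45940, AT4G19520 and Sadhu4-2. RBCS1B had 13.7, 10.7, 2.47 and 6.68 CPM of intragenic tags, the same order at under 2-fold. Antisense tags reached 1 CPM at 6 genes (6.25%, against 8.24% of all tested genes). At AT4G14000, a methyltransferase gene with genic levels of 16.7, 14.7, 7.25 and 6.40 CPM, they ran against the genic order with 1.202, 6.79, 10.99 and 10.23 CPM.

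Features that the rule did not use were counted over the 96 genes and set beside all tested genes. The TATA motif was found upstream of the main peak in 35 (36.5%), against 21.9% of all tested genes, and in 1.04% and 3.50% for a control window further upstream. When only clusters peaking on a pyrimidine-purine step were kept, the rule chose 109 and 110 genes anew. The share was 22.8% in those genes, which is not a share of the 96. The motif is a match of letters in the reference and not a measured binding site. The median main cluster was 37.5 bp wide, against 72 bp in all tested genes, and the main peak base took a median of 47.9% of its cluster's tags against 38.8%. Pseudogenes were 7.29% against 0.641%, and non-coding RNAs 6.25% against 1.51%. A product given only as uncharacterized, hypothetical or "other RNA" was found in 22.9% against 6.41%. That share overlaps with the pseudogenes and non-coding RNAs. The highest accession's median level was 18.21 CPM against 23.61 CPM in all tested genes, and whether level accounts for any of these shares was not tested.

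The position of the main peak could be compared across accessions. Of the 66 genes listed in all 4 accessions, 29 (43.9%) had the same main peak base in all, against 61.3% of 13665 tested genes. Within the higher pair, where levels are higher, the main peak base was shared in 39 of 55 (70.9%) and 29 of 41 (70.7%), against 75.5% and 74.5% of all genes listed in those accessions.

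Counting only tested genes as neighbours, 10 of the 96 (10.4%) had another of them as the next gene, against 180 of 13796 other genes (1.305%). In 8 the neighbour went the same way: AT1G63360 with AT1G63390, AT3G45940 with EXLA1, AT4G19520 with AT4G19530, and AT5G32621 with AT5G32670, the last of these 169128 bp apart. The 8 became 2 with the rRNA tags kept in the totals, and 4 when the counting interval had to lie above 2-fold. AT1G76955 and AT1G76960, 1526 bp apart, went opposite ways: AT1G76955 had 16.2, 19.7, 79.7 and 46.9 CPM, while AT1G76960 was an Altenb-2 gene. AT5G43720, an rRNA-processing factor with 3.70, 3.28, 13.6 and 12.1 CPM, went against the NLR AT5G43740 near it.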

How the data were processed

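Per the submitters' processing notes, the aligner was STAR 2.7.9a. Neither the labels nor the file headers name the build, the filters or how tags were joined into clusters. The authors deposited raw tag counts of 317183 clusters, and the deposited peak ratio is a fraction (peak count over cluster count). Cluster ends and peak positions are in bp per the file headers, and were read on TAIR10.1. The smallest listed count is 5.

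The 405 clusters near nuclear rRNA genes were set aside, and CPM is a gene's summed count scaled to 1e6 other tags. A cluster went to the gene with the nearest annotated start. For genes without coding sequence, 200 bp past the start replaced the start codon. The rule as written was met by 140 genes; 44 of these were listed in a single accession, where 0 is at least 2 times 0, and were set aside after their values were seen. The members, gene lists and groupings were chosen with earlier results of these data known. No column names a library, treatment or replicate, so the treatment response that had been planned was not computed, and no test was run on the 4 pooled values.

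The text names the 12 genes with the widest gap and the 8 most abundant of each direction, list members, neighbours and threshold cases; ORA47, AT2G38240, family relatives and other named genes were chosen after their values were seen. Copies of 50 bases were sought with bwa 0.7.19, at most 2 mismatches. Python 3.11.15, pandas 2.3.3, scipy 1.17.1 and matplotlib 3.10.9 were used. The labels describe no molecular identifiers, and tags that are PCR copies of each other would be counted separately.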

Additional observations from a re-analysis of the deposited data

How the results depend on the processing

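No paired analysis was possible because the deposited columns carry no replicate number, and for the same reason no replicate could be left out. Of 99 values of the 6 counts under other settings, 67 stayed within 1.5 times the main count or within the counting interval of the share, and 32 did not. Median-of-ratios scaling, a shorter or longer upstream window, all sense tags, 0.5 CPM added before the ratio, dropping clusters that depth alone could hide and leaving out genes that share a cluster moved none of them that far. Values below are genes higher in Altenb-2 and Kly-1, then in Shigu-2 and Vash-1, unless named. By construction the minimum level set the counts: 86 and 74 at 2 CPM, 25 and 17 at 20 CPM, 193 and 281 with no minimum. Genes unlisted in both lower accessions were then 34, 5 and 277 rather than 10, and those with a neighbour of the same direction 13, 2 and 28 rather than 8. The TATA share was 50% at 20 CPM. A 1.5-fold rule gave 103 and 114 genes, 14 with a neighbour and 11 with intragenic tags differing the same way (5 in the report). A 4-fold rule gave 24 and 15, with 4 neighbours. Keeping rRNA tags gave 33 in the first direction, 2 neighbours and 3 by intragenic tags. Keeping only clusters whose peak sits on a pyrimidine-purine step drops a cluster in some accessions and keeps it in others. It gave 109 and 110 genes, 38 unlisted in both lower accessions and 2 by intragenic tags. The TATA share of these newly chosen genes was 22.8%. The 21.9% of all tested genes was not recomputed under this setting. Chosen after seeing the data, counting 0 against 0 gave 71 in the second direction and 54 unlisted in both lower accessions, and requiring a counting interval above 2-fold gave 35 in the first direction and 4 neighbours. Depth limits the low genes: 5 tags are 0.134 CPM in Shigu-2 and 0.223 CPM in Altenb-2.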

Other observations

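The 44 genes listed in a single accession were 22 in Vash-1, 9 in Altenb-2, 8 in Shigu-2 and 5 in Kly-1, and comprised 21 protein-coding genes, 15 pseudogenes and 8 non-coding RNAs. AT3G00470, a non-coding RNA, had 74.3 CPM in Vash-1, and AT5G34869 had 42.9 CPM in Kly-1. AT4G24420 and AT5G53700 had 19.1 and 16.8 CPM in Vash-1, and AT3G45446, a pseudogene, had 26.1 CPM in Shigu-2. For 34 of the 44, no other accession had a listed sense tag anywhere in the gene.

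For 6 of the 44, another accession had 5 CPM or more once tags past the start codon were counted. CRY3, a cryptochrome of the DASH type, had 54.0 CPM of genic tags in Shigu-2 alone but 58.4, 55.3, 54.5 and 70.3 CPM of all sense tags, in the order of the report. CYSA, a cystatin, had 99.4 CPM of genic tags in Altenb-2 alone and 100.5, 121, 171 and 119 CPM of all sense tags. CRK10, a cysteine-rich receptor-like kinase, had 6.68 CPM of genic tags in Altenb-2 alone and 44.2, 182, 57.6 and 201 CPM of all sense tags, highest in Kly-1 and Vash-1.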
